A study of Mus musculus with 10 samples.

Results

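Activins are secreted signalling proteins of the TGF-beta superfamily, built as dimers of beta subunits, and inhibins pair a beta subunit with the alpha subunit. The dimers bind a type II receptor, which recruits and phosphorylates a type I receptor, and the type I receptor then phosphorylates Smad transcription factors. Follistatin binds activins outside the cell and keeps them from their receptors. In liver, activins are known for restraining hepatocyte growth and for acting on scar-forming stellate cells.

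The genes described here are 10 of the 17274 symbols in the deposited table of FPKM, a read level per gene length and per library size, chosen by symbol. They are the beta subunit genes Inhba, Inhbb, Inhbc and Inhbe, the alpha subunit gene Inha, the follistatin gene Fst, the type I receptor genes Acvr1 (ALK2) and Acvr1b (ALK4), and the type II receptor genes Acvr2a and Acvr2b. All 10 were in the table. The family was taken up because of the measured values of Inhbb, which was 2nd of 12053 tested genes when ordered by p. Values of the group difference are therefore given as a description.

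All samples were livers of wild-type (WT) mice with nonalcoholic steatohepatitis, a fatty and inflamed liver disease, brought on by a diet without choline, rich in fat and based on defined amino acids (CDAHFD). The vector, an adeno-associated virus (AAV) used to carry genes into tissue, was given intravenously. The control AAV group had 5 samples and the AAV-miR-181d-5p group, whose vector encoded the microRNA, had 5 samples. The diet and a vector were thus shared by both groups, and no liver on a normal diet was analysed here. The promoter and dose of the vectors and the age of the mice are not given in the sources used here. The labels number the samples but do not tie each to an animal of its own, so the p-values below measure only how far these livers spread, which may be technical.

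Libraries held 18985912 to 20657019 gene-assigned reads, as worked out from the table. Hepatocyte markers were present throughout, with 11 of 12 listed genes in the table and a summed level of 39468 to 45927 FPKM in controls and 41189 to 46354 FPKM in the miR-181d-5p group. Control liver 5 stood apart in immediate early genes, with Fos at 142 FPKM and Egr1 at 96.2 FPKM, against at most 15.2 and 25.2 FPKM in the other livers.

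MicroRNAs recognise messenger RNAs mainly through the seed, bases 2 to 8 of the mature strand. The mature strand of the vector's microRNA is shown first, with the seed in capitals, as listed by RefSeq on GRCm38.p6 (chr8:84178759-84178781, reverse strand). The members whose annotated 3' UTR holds a 7-base match follow, each as a 30-base stretch of the transcript strand with the match in capitals, because they show where in the family the seed could pair.
miR-181d-5p: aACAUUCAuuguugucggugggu
Inhba: ttcttaaaacaaTGAATGTttgtgtgcaaa
Acvr1b first match: tgagcagagagaGAATGTAggtggaagtct
Acvr1b second match: ggactcagattgGAATGTAacatctgttta
Acvr2a: tgacacagcttgTGAATGTgtagtgtgctg
Acvr2b: cgctccaggcggTGAATGTtcttaatgctg

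The matches searched were TGAATGTA (8mer), TGAATGT (7mer-m8) and GAATGTA (7mer-A1), on the transcript strand only, and an 8mer contains both 7mers. On mm10 the Inhba match lies at chr13:16028781-16028787 in exon 5 of 5, and the Acvr1b matches at chr15:101211773-101211779 and chr15:101211905-101211911 in exon 9 of 9. The Acvr2a match is at chr2:48900274-48900280 in exon 11 of 11, and the Acvr2b match at chr9:119434667-119434673 in exon 11 of 11. All lie in the 3' UTR on the forward strand. So 4 of 10 members held a match, 0 of them an 8mer, whereas at least 1 was found in 24.0% of the 11771 tested genes for which a 3' UTR was annotated. With 6mers counted as well, the members with a match were again 4 of 10, against 37.4% of those genes, and for 8mers alone 0 of 10 against 6.13%. Inha and Acvr2b are among the 10 but not among the tested genes. The median 3' UTR of the tested genes was 1287 nt long, while those of Inhba, Acvr1b and Acvr2a had 4492, 2822 and 3481 nt. Members without a match ran from 203 nt (Inha) to 1857 nt (Inhbb). The part of 3' UTR length in the count of matches was not tested. Inhbb, with a 3' UTR of 1857 nt, held none of the 3 matches and also no 6mer (GAATGT). Only the longest 3' UTR in GENCODE vM21 was searched. For Acvr2b that is 1534 nt, while the table's FPKM values imply a gene length of 12210 bases, so a longer Acvr2b transcript was not searched. Implied lengths also differ from this annotation for Inhba (12477 bases, 4492 nt searched) and Inhbe (2211 bases, 1400 nt searched). Any further 3' UTR sequence of a member, Inhbb included, was not searched. The count of 4 of 10 covers only the 3' UTRs searched. A match describes letters in this window and does not show binding.

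Among the beta subunits, Inhbb had the largest relative difference between the groups. Inhbb encodes the beta B chain, whose dimer is activin B, a known inducer of hepcidin in hepatocytes. It lies at chr1:119415465-119422248 on mm10, on the reverse strand, with 2 exons and no overlapping annotated gene. In control livers 1 to 5 it stood at 3.43, 5.59, 5.26, 5.29 and 6.19 FPKM, and in miR-181d-5p livers 1 to 5 at 2.41, 2.31, 2.50, 3.07 and 2.83 FPKM. Every miR-181d-5p liver was below every control liver, and the nearest pair was control liver 1 and miR-181d-5p liver 4. The means were 5.15 ± 1.03 and 2.62 ± 0.317 FPKM (SD, n = 5 each), so the miR-181d-5p mean was 50.9% of control.

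The Inhbb values rest on 200 to 505 reads per liver, with 2151 reads in the control group and 1093 in the miR-181d-5p group. Taken as log2(FPKM + 1), a scale on which differences of low genes come out too small, the difference was -0.75 (SE 0.12) by limma, with an adjusted p of 0.149 over all 12053 tested genes. Inhbb thus did not pass at 0.05. Over the other 20 fits its adjusted p ran from 0.00555, without control liver 1, to 0.355, without miR-181d-5p liver 2. Besides the fit without control liver 1, limma voom with sample quality weights on recovered reads also passed (adjusted p = 0.0448). After quantile normalization the groups overlapped, with control liver 1 at 2.07, below miR-181d-5p liver 4 at 2.14, on the log2 scale.

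Across all genes tested by limma 0 passed, or 0.0%, and so did 0 of the 8 tested members. With no adjustment, 1768 genes (14.7%) had p under 0.05, 607 of them higher and 1161 lower, and among the members 1 did, Inhbb. The split into higher and lower was 347 to 1266 when each liver's FPKM was rescaled to the same sum, and 997 to 942 under quantile normalization. Of the 8 tested members 4 had a log2 change below 0, against 54.5% of all tested genes. Groups did not overlap in 1 member, Inhbb, which was lower, and in 2.47% of all tested genes (1.45% lower and 1.02% higher). The rule that brought the family together used this contrast, so nothing is read from that count.

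**Figure D1:**
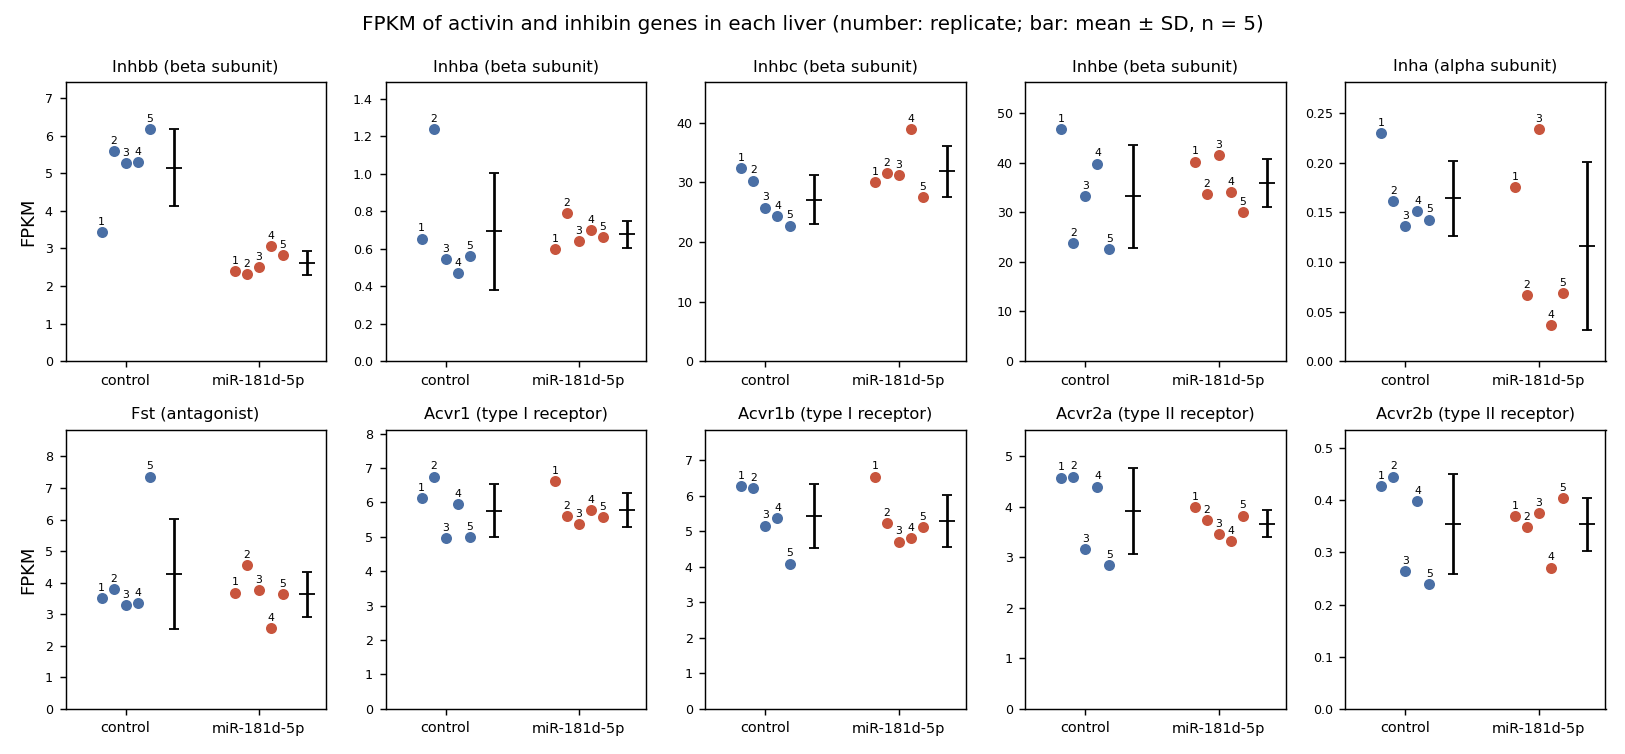
FPKM of each of the 10 genes in each liver, with control livers in blue and miR-181d-5p livers in red, replicate numbers above the points, and mean ± SD (n = 5) as black bars; each vertical axis starts at 0. In Inhbb all 5 red points lie below the blue ones (2.31 to 3.07 against 3.43 to 6.19 FPKM), and in the other 9 genes the groups overlap.

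Inhba encodes the beta A chain of activin A, and was the lowest of the beta subunits. It stood at 0.655, 1.24, 0.546, 0.469 and 0.560 FPKM in control livers 1 to 5 and at 0.599, 0.792, 0.642, 0.698 and 0.662 FPKM in miR-181d-5p livers 1 to 5. Control liver 2 was above all other livers, and the groups overlapped. The means were 0.694 ± 0.313 and 0.678 ± 0.0726 FPKM, and the log2 change was 0.00 (SE 0.10, limma adjusted p = 0.991). Without control liver 2 the log2 change was 0.11, and that fit did not pass either (adjusted p = 0.573). Inhba, which carries a 7mer-m8 match, was thus at 97.8% of control.

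Inhbc and Inhbe encode the beta C and beta E chains, which are made chiefly by hepatocytes. They are neighbours on the reverse strand of chromosome 10, at chr10:127356322-127370431 and chr10:127348857-127354411, with 1910 bases and 0 protein-coding genes between them. Inhbc stood at 32.4, 30.3, 25.8, 24.3 and 22.7 FPKM in control livers 1 to 5 and at 30.1, 31.5, 31.2, 39.0 and 27.5 FPKM in miR-181d-5p livers 1 to 5. The highest liver was miR-181d-5p liver 4 and the 3 lowest were controls, but the groups overlapped. The means were 27.1 ± 4.09 and 31.8 ± 4.29 FPKM, a log2 change of 0.23 (SE 0.11, limma adjusted p = 0.361).

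Inhbe stood at 46.8, 23.7, 33.2, 39.8 and 22.5 FPKM in control livers 1 to 5 and at 40.2, 33.6, 41.5, 34.0 and 30.03 FPKM in miR-181d-5p livers 1 to 5. Both extremes were controls, so the miR-181d-5p range lay inside the control range. The means were 33.2 ± 10.4 and 35.9 ± 4.83 FPKM, a log2 change of 0.15 (SE 0.18, limma adjusted p = 0.706). Inhbe and Inhbc ordered the control livers differently, since control liver 2 was 2nd among controls for Inhbc and 4th for Inhbe. Control liver 1, the lowest control for Inhbb, was the highest liver for Inhbe.

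Per length, the hepatocyte subunits made up most of the beta subunit RNA. In controls Inhbe held 49.3% ± 7.96 and Inhbc 41.4% ± 5.68 of the summed beta subunit FPKM (SD, n = 5), and the miR-181d-5p group 50.5% ± 4.43 and 44.8% ± 4.05. Inhbb held 8.18% ± 2.82 with the control vector and 3.72% ± 0.590 with miR-181d-5p. These shares overlapped, since control liver 1 was at 4.11% and the highest miR-181d-5p liver at 4.63%. Inhba held 1.08% ± 0.555 and 0.964% ± 0.151. The sum itself was 66.2 ± 11.6 FPKM in controls and 71.0 ± 6.51 FPKM in the miR-181d-5p group. Shares per length depend on the gene lengths behind the FPKM, which the values put at 2211 bases for Inhbe, 1976 for Inhbc, 4257 for Inhbb and 12477 for Inhba. Counted as reads, the Inhbb share was 14.4% for the control vector and 6.94% for miR-181d-5p, and the Inhba share 5.59% and 5.27%.

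**Figure D2:**
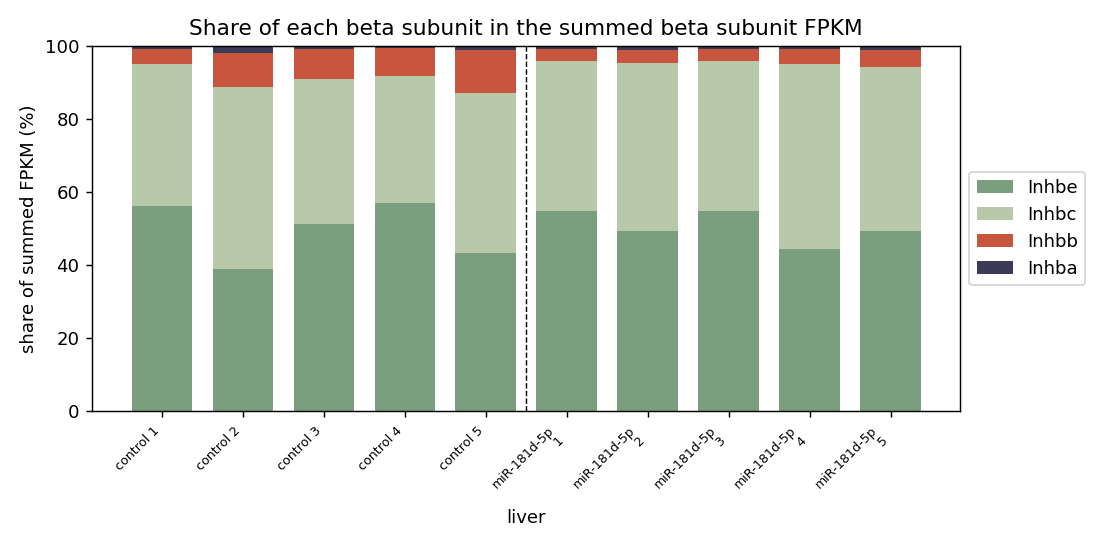
Share of each beta subunit gene in the summed FPKM of Inhba, Inhbb, Inhbc and Inhbe (vertical axis, percent) in each liver, with controls left of the dashed line and miR-181d-5p livers right of it. The Inhbb band runs from 4.11% to 11.9% in controls and from 3.28% to 4.63% in the miR-181d-5p group, and Inhbe and Inhbc fill most of every bar.

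Inha, whose product pairs with a beta subunit to form inhibin, was close to the floor of the assay. Its reads numbered 13, 9, 8, 9 and 8 in control livers 1 to 5 and 10, 4, 13, 2 and 4 in miR-181d-5p livers 1 to 5, or 47 against 33 in all. The corresponding levels were 0.230, 0.161, 0.136, 0.152 and 0.143 FPKM against 0.175, 0.0663, 0.234, 0.0359 and 0.0689 FPKM. Liver 3 of the miR-181d-5p group was the highest of all, and liver 4 of the same group the lowest. Inha lay under the filter for testing, a mean of 0.5 FPKM. Its log2 change was -0.06 with a pseudocount of 1, -0.36 with a pseudocount of 0.1 and -0.72 (SE 0.43) by voom on reads, so the size of a difference was not measurable at this depth.

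Fst, the antagonist, stood at 3.51, 3.78, 3.30, 3.35 and 7.36 FPKM in control livers 1 to 5 and at 3.69, 4.55, 3.76, 2.55 and 3.64 FPKM in miR-181d-5p livers 1 to 5. Control liver 5, the liver with high Fos and Egr1, was far above the rest. The part of that immediate early signal in the Fst value was not tested. The means were 4.26 ± 1.74 and 3.64 ± 0.713 FPKM, a log2 change of -0.15 (SE 0.18, limma adjusted p = 0.717). Without control liver 5 the log2 change was 0.03 and the direction turned. The ratio of Inhbb to Fst FPKM was 1.29 ± 0.358 in controls and 0.761 ± 0.265 in the miR-181d-5p group, and the groups overlapped. The ratio of Inhbb to Inhba FPKM was 8.34 ± 3.24 and 3.90 ± 0.584, without overlap (4.51 to 11.3 against 2.92 to 4.40). Both ratios contain the Inhbb values for which the family was taken up, so nothing further is read from them.

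In all 4 receptor genes the groups overlapped. Acvr1, the type I receptor ALK2 that signals to Smad1, Smad5 and Smad9, stood at 6.12, 6.75, 4.96, 5.95 and 4.99 FPKM in control livers 1 to 5. In miR-181d-5p livers 1 to 5 it stood at 6.61, 5.61, 5.36, 5.77 and 5.57 FPKM. The miR-181d-5p range fell inside the control range, and the log2 change was 0.01 (SE 0.09, limma adjusted p = 0.965). Acvr1b, the type I receptor ALK4 that signals to Smad2 and Smad3, stood at 6.27, 6.21, 5.16, 5.37 and 4.09 FPKM in controls and at 6.53, 5.23, 4.70, 4.80 and 5.11 FPKM in miR-181d-5p livers. Liver 1 of the miR-181d-5p group was the highest and control liver 5 the lowest, and the log2 change was -0.03 (SE 0.11, limma adjusted p = 0.921).

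Acvr2a, the more abundant of the activin type II receptors here, stood at 4.57, 4.60, 3.16, 4.40 and 2.84 FPKM in controls and at 3.997, 3.73, 3.46, 3.32 and 3.82 FPKM in miR-181d-5p livers. All miR-181d-5p livers lay between the high controls (1, 2 and 4) and the low ones (3 and 5). The log2 change was -0.06 (SE 0.11, limma adjusted p = 0.830). Acvr2b, the other type II receptor, stood at 0.428, 0.445, 0.264, 0.399 and 0.239 FPKM in controls and at 0.369, 0.349, 0.375, 0.271 and 0.404 FPKM in miR-181d-5p livers, and its means were 0.355 ± 0.0962 and 0.354 ± 0.0503 FPKM. It too lay under the filter and was not tested, with 56 to 104 reads per liver. Acvr2a exceeded Acvr2b in every liver, by 10.3 to 11.9 times in controls and 9.22 to 12.3 times in miR-181d-5p livers, on FPKM. That ratio rests on implied lengths of 5190 bases for Acvr2a and 12210 for Acvr2b, and in reads over all livers the counts were 3860 and 849, a smaller ratio.

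In controls all 4 receptor genes were lower in livers 3 and 5 than in livers 1, 2 and 4. The same livers differed in the median FPKM of all tested genes, which was 6.64 and 6.34 in control livers 3 and 5 against 7.09, 7.28 and 7.29 in control livers 1, 2 and 4. The part of this library difference in the receptor values was not tested. After quantile normalization, which gives every liver the same distribution, the log2 changes of Acvr1, Acvr1b and Acvr2a were 0.06, 0.02 and 0.00.

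**Figure D3:**
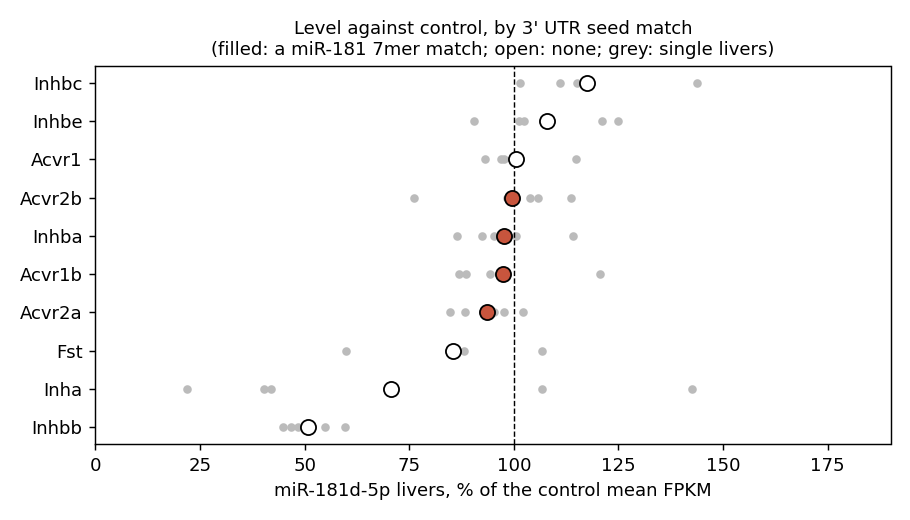
Level of each gene in miR-181d-5p livers as a percent of its control mean FPKM (horizontal axis), with the group mean as a large circle and single livers in grey. Filled circles mark the 4 genes with a 7-base miR-181 match in the 3' UTR, at 93.7% to 99.6% of control, and the open circle of Inhbb lies lowest at 50.9%.

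The 4 genes with a match stood at 97.8% (Inhba), 97.4% (Acvr1b), 93.7% (Acvr2a) and 99.6% (Acvr2b) of their control means. The members without a match ran from 50.9% (Inhbb) to 117.5% (Inhbc). With 1 liver group per vector and 10 genes, no test of this arrangement was made.

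Ordered by mean FPKM over all 10 livers, the members ran Inhbe (34.5), Inhbc (29.5), Acvr1 (5.77), Acvr1b (5.35), Fst (3.95), Inhbb (3.89), Acvr2a (3.79), Inhba (0.686), Acvr2b (0.354) and Inha (0.140). Their ranges over livers overlapped between Inhbe and Inhbc, and between each pair of neighbours from Acvr1 to Acvr2a. The steps from Inhbc to Acvr1, 5.11-fold, and from Acvr2a to Inhba, 5.52-fold, held in 10 of 10 livers without overlap of ranges. In controls alone Inhbb, at 5.15 FPKM, had a mean above those of Fst and Acvr2a, with overlapping ranges, and in miR-181d-5p livers, at 2.62 FPKM, a mean below both.

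Genes around the activin pathway were taken from lists of ligands, receptors, antagonists, Smads and targets. These lists and the cell type lists were written with earlier results of these data known. Their counts beside the shares of all tested genes are therefore a description. None of the 73 tested genes on the 8 lists passed by limma, with 18 lower and 3 higher at an unadjusted p under 0.05, set beside 9.63% and 5.04% of all tested genes. The lowest adjusted p was 0.167 (Ccn2).

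Known targets of Smad2 and Smad3, the Smads downstream of ALK4, had a median log2 change of -0.36, against -0.02 for all tested genes. All 12 had a value below 0, against 54.5% of all tested genes. An unadjusted p under 0.05 was found in 8 of 12, against 9.63% of all tested genes lower at that p. Without control liver 5 the median was -0.33 and the count again 8 of 12, while over all tested genes the median was -0.04 and 14.9% were lower at that p. Skil, a Smad-binding repressor that these Smads induce, stood at 7.71 ± 0.976 FPKM in controls and 5.59 ± 0.451 FPKM in the miR-181d-5p group, a log2 change of -0.40 (SE 0.09, limma adjusted p = 0.221). Cdkn1a, the cell cycle inhibitor p21, stood at 40.3 ± 3.27 and 30.7 ± 3.33 FPKM, and in neither gene did the groups overlap. Ccn2, a matrix-associated protein, had the largest log2 difference of the 12, at 48.8 ± 17.7 and 21.3 ± 4.79 FPKM. The most abundant of the list were Tgfbi, a secreted matrix protein, at 82.5 ± 9.67 and 65.6 ± 6.52 FPKM, and Bhlhe40, a transcriptional repressor, at 53.1 ± 11.9 and 38.0 ± 5.85 FPKM. Skil, Ski, Pmepa1 and Smad7 are also on the list of Smad regulators, and Smad7 is on that of Smad1, Smad5 and Smad9 targets too. TGF-beta induces these genes too, and TGF-beta and activin cannot be told apart from them. The summed level of the list was 236.9 to 375.8 FPKM in controls and 170.2 to 211.7 FPKM in the miR-181d-5p group, without overlap.

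Markers of stellate cells and fibroblasts, which are known to respond to activin, had lower summed levels alongside. Their summed level was 706.4 to 990.4 FPKM in controls and 548.5 to 693.0 FPKM in the miR-181d-5p group, 0 of 18 passed adjustment by limma, 17 had a value below 0 (54.5% of all tested genes did), 12 were lower at an unadjusted p under 0.05 (9.63% of all tested genes), and the median log2 change was -0.34, or -0.27 without control liver 5. No marker of this list was at 0 in any liver. Fewer cells of a type and less RNA per cell cannot be told apart in whole liver. The part of cell makeup in the Inhbb and target values was not tested. Cholangiocyte markers had a median of -0.59, with 5 of 7 tested genes lower at an unadjusted p under 0.05, and an overlapping summed level of 279.0 to 523.4 against 118.4 to 381.8 FPKM. Endothelial (-0.10), macrophage (-0.13), lymphocyte (-0.22) and neutrophil (-0.04, or 0.19 without control liver 5) lists had overlapping sums. At an unadjusted p under 0.05, 4 of 12 endothelial and 3 of 12 macrophage genes were lower, and 1 macrophage gene was higher. For lymphocytes 1 of 5 tested genes was lower, and for neutrophils 0 of 3. Over all tested genes 9.63% were lower at that p. A list of pancreas, muscle, fat and gonad markers, with 7 of 12 in the table, summed to 7.14 to 11.3 FPKM in controls and 9.83 to 12.8 FPKM with miR-181d-5p. Nearly all of that sum was 1 gene, Cela1, at 9.62 ± 1.77 and 11.2 ± 1.11 FPKM. The rest stayed at or below 0.282 FPKM in every liver. The hepatocyte list had a median of 0.04.

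Targets of Smad1, Smad5 and Smad9, the arm below ALK2, did not share that direction. Of 11 tested genes 7 were above 0 and 4 below, with a median of 0.06, while 54.5% of all tested genes were below 0. Hamp, which encodes the iron hormone hepcidin, stood at 998 ± 579 FPKM in controls and 1316 ± 575 FPKM in the miR-181d-5p group, with ranges of 521 to 1851 and 501 to 2053 FPKM. Hamp2, a close copy of Hamp, stood at 13.0 ± 8.05 and 20.2 ± 3.45 FPKM (limma adjusted p = 0.2996). How reads that match both genes were counted is not given. Id2, an inhibitor of DNA binding, stood at 107 ± 22.3 and 117 ± 26.5 FPKM, and Bambi, a decoy receptor, at 1.79 ± 0.212 and 1.44 ± 0.215 FPKM.

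The Smads and their regulators had a median log2 change of -0.09 over 16 tested genes. Of these 12 were below 0, against 54.5% of all tested genes. Skil alone, 1 of 16, was lower at an unadjusted p under 0.05, against 9.63% of all tested genes. Without control liver 5 the count was 4 of 16, against 14.9% of all tested genes, and the median was -0.13. Smad1 stood at 6.24 ± 0.574 and 5.44 ± 0.595 FPKM. Smad2 (2.34 ± 0.206 and 2.15 ± 0.136 FPKM), Smad3 (4.17 ± 0.832 and 3.88 ± 0.372 FPKM) and Smad4 (9.10 ± 1.48 and 8.72 ± 0.722 FPKM), named after their values were seen, overlapped between the groups. Ski, a repressor related to Skil, was at 12.9 ± 1.44 and 11.5 ± 0.614 FPKM, and the Smad phosphatase gene Ppm1a at 24.3 ± 2.51 and 26.6 ± 1.24 FPKM.

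Other receptors and co-receptors were all below 0 among the 7 tested, with a median of -0.24, while 54.5% of all tested genes were below 0. At an unadjusted p under 0.05, 3 of 7 were lower, against 9.63% of all tested genes. Without control liver 5 that count was 5 of 7, against 14.9%. The summed levels overlapped, at 84.9 to 109.6 FPKM in controls and 77.2 to 88.9 FPKM in the miR-181d-5p group. Tgfbr3, which encodes betaglycan, the co-receptor through which inhibin blocks activin, stood at 2.90 ± 0.345 FPKM in controls and 2.30 ± 0.163 FPKM in the miR-181d-5p group (limma adjusted p = 0.250). Tgfbr2, the type II receptor of TGF-beta, stood at 20.4 ± 3.15 and 16.6 ± 1.04 FPKM, and Eng, an endothelial co-receptor, at 40.1 ± 3.03 and 37.5 ± 1.75 FPKM. Acvr1c, the type I receptor ALK7, was named after its values were seen. It had 0 to 4 reads per liver and 19 in all, so these livers gave no measurable level of it. Tdgf1, the co-receptor Cripto, had 1 read in all livers together.

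Among other extracellular antagonists the median was -0.29, with 5 of 6 tested genes below 0 (54.5% of all tested genes were). Lower at an unadjusted p under 0.05 were 4 of 6, against 9.63% of all tested genes. Without control liver 5 that count was 3 of 6, against 14.9%. The summed levels overlapped, at 26.8 to 35.4 FPKM in controls and 17.2 to 27.9 FPKM in the miR-181d-5p group. Fstl1, a follistatin-like protein of fibroblasts, stood at 22.2 ± 3.35 and 16.2 ± 3.09 FPKM (limma adjusted p = 0.240). Nbl1, an antagonist of bone morphogenetic proteins (BMPs), ran from 0.865 to 1.49 FPKM in controls and from 0.678 to 0.901 FPKM with miR-181d-5p. Fstl3, the nearest relative of follistatin, named after its values were seen, stood at 1.598 ± 0.389 and 1.07 ± 0.432 FPKM with overlapping groups.

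Of other ligands that share these receptors, 7 of 8 tested were below 0 (54.5% of all tested genes were), with a median of -0.24. The summed levels overlapped, at 63.1 to 138.8 FPKM in controls and 57.5 to 68.6 FPKM in the miR-181d-5p group. Bmp5 stood at 5.83 ± 0.641 and 4.33 ± 0.541 FPKM without overlap of the groups (limma adjusted p = 0.221). Gdf2, which encodes BMP9 and is made by stellate cells, stood at 16.2 ± 1.75 and 13.4 ± 1.19 FPKM. Gdf15, a stress-induced hormone, ranged from 17.8 to 92.0 FPKM in controls and from 20.5 to 30.6 FPKM in the miR-181d-5p group.

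Genes for processing the precursors and handling the receptors lay near 0, with a median of -0.02 over 8 tested genes and 0 at an unadjusted p under 0.05. Furin, the protease that cuts activin precursors, stood at 58.1 ± 8.66 and 57.0 ± 2.98 FPKM, and Fkbp1a, which holds type I receptors inactive, at 83.4 ± 6.84 and 84.6 ± 2.24 FPKM. Pcsk6 and Pcsk7, related proteases, stood at 27.0 ± 4.24 and 29.3 ± 3.01 FPKM and at 4.62 ± 0.307 and 4.32 ± 0.238 FPKM.

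Inhbe is known to be induced in hepatocytes by the integrated stress response through Atf4, so genes of that response were set beside it. Of 13 tested, 11 were above 0 and 2 below, while 54.5% of all tested genes were below 0. The median log2 change was 0.28. The summed levels overlapped, at 436.0 to 928.6 FPKM in controls and 725.8 to 1116.4 FPKM in the miR-181d-5p group. At an unadjusted p under 0.05, 2 were higher, against 5.04% of all tested genes. These were Atf5, a transcription factor of this response, at 290 ± 127 FPKM in controls and 430 ± 84.6 FPKM in the miR-181d-5p group (limma adjusted p = 0.288), and Fgf21, a liver hormone, at 38.3 ± 17.0 and 63.9 ± 22.0 FPKM (limma adjusted p = 0.296). The groups overlapped in Atf5 and in Fgf21. Cth, an enzyme of cysteine synthesis, stood at 130 ± 28.4 and 142 ± 26.8 FPKM. The log2 change of Inhbe itself was 0.15.

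**Figure D4:**
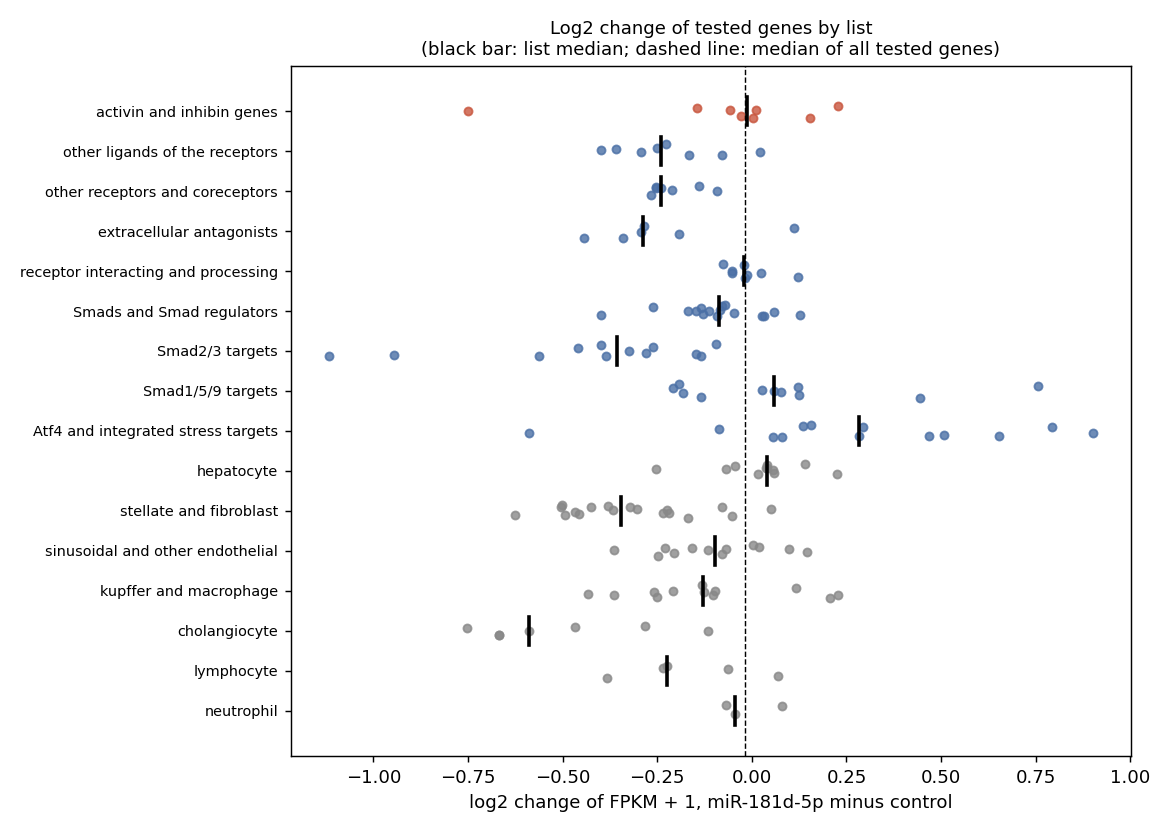
Log2 change of each tested gene (horizontal axis, log2 of FPKM + 1, miR-181d-5p minus control) by list, with the activin and inhibin genes in red, pathway lists in blue and cell type markers in grey; black bars are list medians and the dashed line is the median of all tested genes, -0.02. The 8 tested activin and inhibin genes have a median of -0.01 with Inhbb alone at -0.75, and the Smad2/3 target list lies to the left with a median of -0.36. The lists of stellate cells and fibroblasts (-0.34) and of cholangiocytes (-0.59) lie to the left too.

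To see which genes varied with a member within groups, group means were removed from log2(FPKM + 1) and Pearson's r over the 10 livers was used as the measure of likeness. For Inhbb the closest were Ctla2b (r = 0.91), Ndufs6b (0.91), Chil3 (0.90), a chitinase-like protein of macrophages, Sft2d1 (0.88) and Tspan7 (0.88), a tetraspanin. For Inhbe they were Nop58 (r = 0.97), a nucleolar protein, Sar1a (0.95), a GTPase of transport from the endoplasmic reticulum, St3gal3 (0.95), Pycrl (0.94) and Alg6 (0.94). For Fst they were Acta2 (r = 0.91), the smooth muscle actin of activated stellate cells, Lsm2 (0.91), Aqp1 (0.91), Il1rap (0.90) and Egr1 (0.90). The Fst values rest in part on control liver 5: without it r was 0.62 for Acta2 and 0.54 for Egr1, while for the Inhbb and Inhbe genes it stayed at or above 0.84. These r values come from 10 livers and from a ranking of many genes, and are a description.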

How the data were processed

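Liver RNA of 10 samples was measured by RNA-seq of a TruSeq Stranded mRNA library, per the labels' protocols. The authors deposited 1 table of FPKM, with no formula given in the sources used here. The submitters' processing notes name the mm10 build, the aligner HISAT2 2.2.1, the counter HTSeq 0.13.5, Trimmomatic 0.38, DESeq2 1.18.1, FastQC 0.11.9 and R 3.4.1, without order; the gene annotation and whether counting used strand are not given. Reads in the overlap of genes on opposite strands may thus have been counted for the wrong gene or left out. Such an overlap was annotated for 7 members. For Inhba, Inhbc, Inhbe, Fst and Acvr2b it is with an antisense gene. For Acvr1 it is with the protein-coding Gm17409, and for Acvr2a with the protein-coding Orc4.

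Each column was tied to its sample by the group and number in its name. Values were whole reads divided by a whole gene length and a library total, within 0.02 of a read, for 17273 of 17274 genes. The recovered reads give the depths; intervals on them would cover counting error only.

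The 12053 genes whose mean reached 0.5 FPKM were tested on log2(FPKM + 1), using limma 3.58.1 (R 4.3.3) with a mean-dependent prior variance and group as the only term, two-sided, with Benjamini-Hochberg adjustment at 0.05. The fit was tested on simulated data. The members and lists were chosen with earlier results of these data known. In each pathway list the 2 genes with the smallest p and the 2 with the highest mean are named, except 1 that is not reported here, and likeness took the 5 highest r among genes averaging 1 FPKM or more. Alternatives changed the pseudocount, filter or scaling, used robust fitting or array weights, added a replicate block, or left out each liver; voom on recovered reads was chosen after seeing the data. Positions and 3' UTRs come from GENCODE vM21 (mm10). A planned comparison of protein sequences was not made. Tables and plots were made in Python 3.11.15 (pandas 2.3.3, matplotlib 3.10.9, numpy 2.4.6).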

Additional observations from a re-analysis of the deposited data

Results flagged for a closer look

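In 28 sets of 5 livers (each member's FPKM and each beta subunit share, per group), Dixon's test marked 4 in which 1 liver lay far from the rest, and chance marks about 1 in 20. Fst was 7.36 FPKM in control liver 5, with the next control at 3.78 FPKM. Inhba was 1.24 FPKM in control liver 2, with the next control at 0.655 FPKM. Inha was 0.230 FPKM in control liver 1, on 13 reads, with the next control at 0.161 FPKM. Acvr1b was 6.53 FPKM in miR-181d-5p liver 1, with the next liver of that group at 5.23 FPKM. Inhbb was not among them in either group.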

How the results depend on the processing

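The adjusted count over the whole table was 0 in the planned fits other than the replicate block (1, Ccn2) and the fits without 1 liver (0 to 3), where it was 3 without control liver 1, 1 without control liver 5 and 1 without miR-181d-5p liver 3. It was 2 (Inhbb and Jdp2) by voom with sample quality weights. The count of members past the threshold was 1, Inhbb, with those weights, and 0 to 1 without 1 liver, being 1 without control liver 1. With the replicate number as a block, the log2 change of Inhbb was -0.75 (limma adjusted p = 0.231). Same-numbered livers had correlations of deviations from -0.28 to 0.01, and 0 of 5 control livers correlated best with its own number. These correlations over all tested genes gave no sign of pairing by number. They cannot exclude a pairing that touches few genes. Inhbb kept its direction in all 21 fits, from -0.98 to -0.68. The count of members without overlap was 0 after quantile normalization and 1 without any 1 liver. By reads the Inhbb share was 14.4% (control) and 6.94% (miR-181d-5p), and without 1 liver the share per length ran from 7.25% to 9.19% and from 3.49% to 3.83%. Counting 8mers only, 0 members held a seed match. Members near 0 turned in sign: with FPKM rescaled to a common sum Inhba was at -0.0124 and Acvr1 at -0.0140, after quantile normalization Acvr1b was at 0.0238 and Acvr2a at 0.00381, and by voom with quality weights Fst was at 0.00362. Without 1 liver Inhba ran from -0.0440 to 0.108, Acvr1 from -0.0318 to 0.0628, Acvr1b from -0.11 to 0.0199 and Fst from -0.21 to 0.0348. The cause of these turns was not tested. Depth limits Inha most, at 2 to 13 reads per liver.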
